A study of Mus musculus with 4 samples.

Results

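Levels of 55 genes that drive, copy or brake the cell division cycle were examined in insulin reporter-positive cells made from mouse gallbladder cells. The genes were taken by symbol from the deposited expression matrix, where all 55 had a row among 20377 genes. They fall into 6 groups by role, with 10 G1 cyclins and kinases, 8 genes of the RB and E2F family, 10 replication genes, 16 genes of S phase, G2 and mitosis, 6 inhibitors, and 5 genes of p53 and Myc. All 4 libraries, replicates 1 to 4, belong to the group rGBC2, and no control samples were analysed here. Primary gallbladder cells came from MIP-GFP mice, strain B6.Cg-Tg(Ins1-EGFP)1Hara/J on a C57BL/6 background, at 8 weeks of age. They were expanded in culture, given Pdx1, Ngn3, Mafa and PAX6 with compounds that the labels do not name over 10 days, and sorted for green fluorescence driven by an Ins1 promoter. The sort thus chose cells by activity of that promoter, and nothing in the labels says whether the 4 libraries came from separate animals or cultures, so p-values measure the spread between these libraries, which may be technical.

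A cell commits to division in G1, when D-type cyclins with Cdk4 or Cdk6, and then E-type cyclins with Cdk2, phosphorylate the retinoblastoma proteins and release E2F factors. E2F factors switch on the genes that license and copy DNA, and a later wave of genes, bound through CHR and CCAAT promoter elements, builds the mitotic machinery. Inhibitors of the Cip/Kip and INK4 families block the kinases, and p53 acts largely by inducing Cdkn1a. Adult gallbladder epithelium and adult beta cells in mice both divide rarely.

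The libraries were not equally alike. Replicates 3 and 4 correlated at 0.998 on the log2(RPKM + 1) scale, against 0.966 to 0.981 for the other pairs, although their estimated reads still differed by more than sampling noise (median chi-square per gene 2.45, where noise alone gives 0.455). Replicates 1 and 2 held reads of the Y-linked genes Eif2s3y (48.5 and 44.7 RPKM) and Ddx3y, and replicates 3 and 4 held none. All 4 insulin cell markers (Ins1, Ins2, Iapp and Pcsk2) lay above 1 RPKM and summed to 3434 to 10600 RPKM, lowest in replicate 1. Of 5 biliary markers, 4 lay above 1 RPKM, and Sox9, at 0.61 to 1.2 RPKM, did not pass the test used below. Estimated depth differed by less than 1.5 times between libraries. RPKM, reads per kilobase of transcript scaled to the mapped reads of the library, is a level per length, the scale on which genes are set side by side here. Shared sequence, given for some single genes only, and GC content limit such comparisons.

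Each gene was tested against a fixed level of 1 RPKM across all 16919 genes that were not at 0 in every library, with limma and Benjamini-Hochberg adjustment at a threshold of 0.05. Of the 55 genes, 36 were above 1 RPKM by this test, 11 were below it and the other 8 did not pass. The share above, 65.5%, was close to the 65% of all genes tested, and the share below, 20%, stood beside 26.1% of all genes tested. The groups differed widely in these counts. All 8 RB and E2F genes, 8 of 10 G1 cyclins and kinases, 8 of 10 replication genes, 5 of 6 inhibitors and 4 of 5 p53 and Myc genes lay above 1 RPKM, but 3 of 16 genes of S phase, G2 and mitosis did, and 9 of those 16 lay below it. In bulk RNA, fewer cells with a transcript and less of it per cell cannot be told apart.

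**Figure D1:**
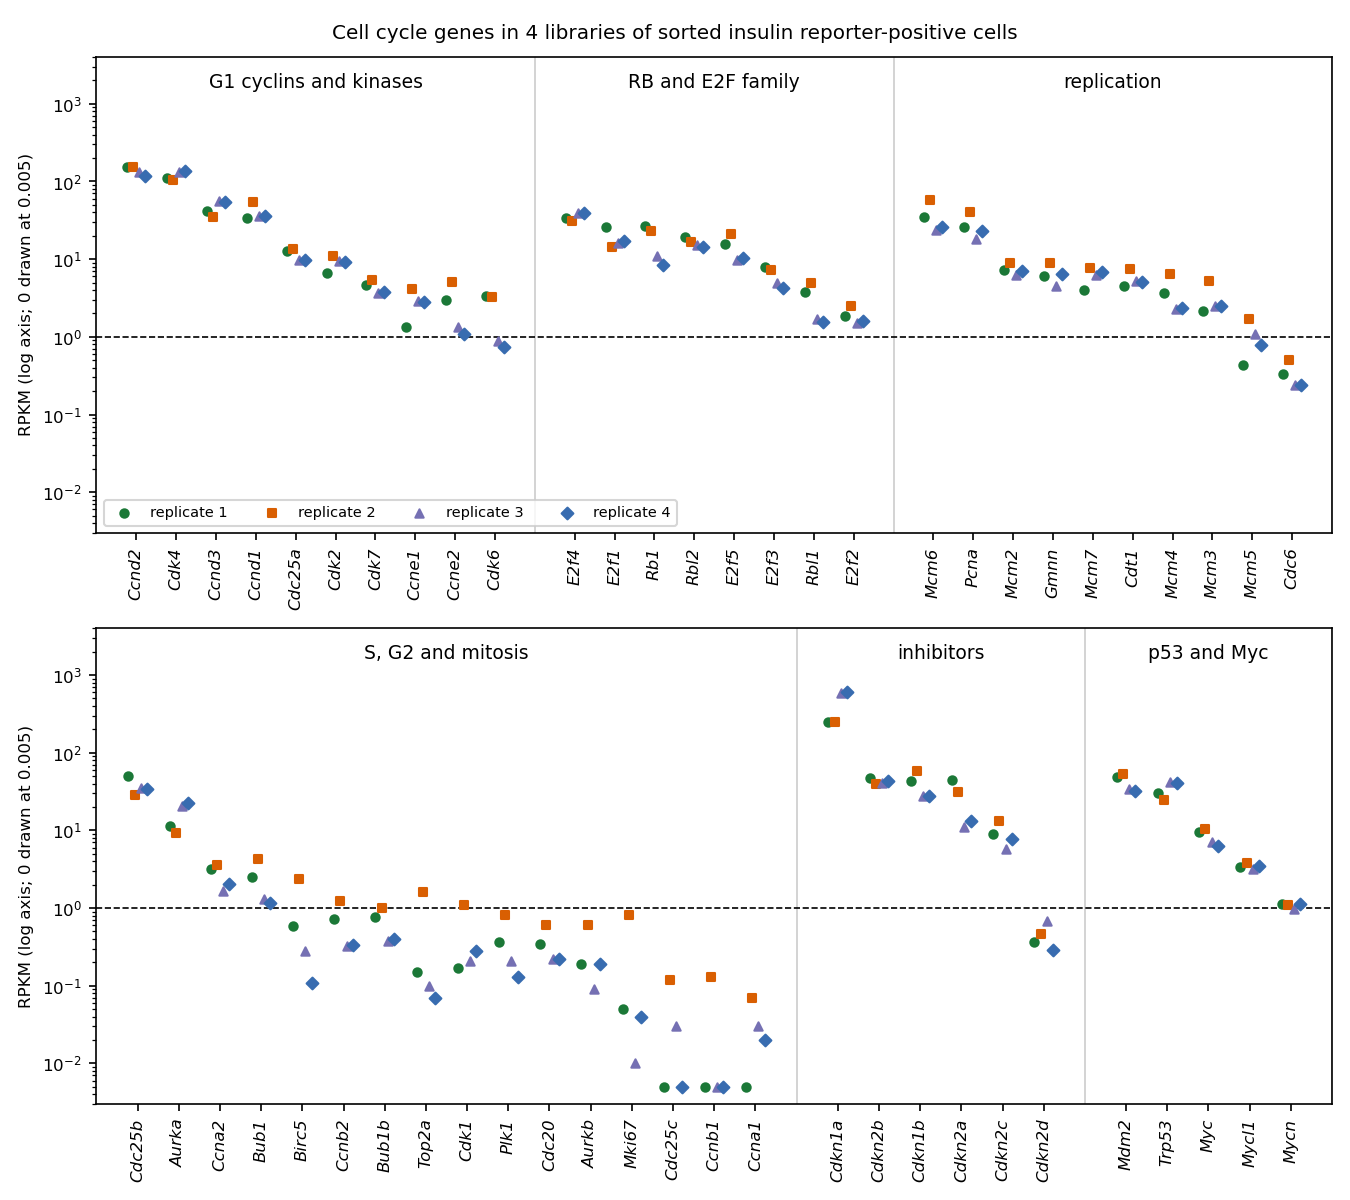
RPKM (log axis, with 0 drawn at 0.005) of the 55 cell cycle genes in replicates 1 to 4, by role and in order of mean; the dashed line is 1 RPKM. Cdkn1a, Ccnd2 and Cdk4 sit highest, and most genes of S phase, G2 and mitosis sit below the line, where replicate 2 is the highest library for 14 of 16.

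The G1 kinase machinery was led by the D-type cyclins and Cdk4. Ccnd2, cyclin D2, on chromosome 6 from 127075727 to 127101066 (mm9), stood at 153, 155, 133 and 118 RPKM in replicates 1 to 4. Cdk4, the kinase that D-type cyclins activate, on chromosome 10 from 126500659 to 126504338, stood at 111, 103, 131 and 138 RPKM. Both lay in the top 5% of genes by level, and neither varied by more than 1.34-fold between libraries. Ccnd3, cyclin D3, was measured at 41.2, 34.8, 55.9 and 54.0 RPKM, and Ccnd1, cyclin D1, at 34.1, 53.8, 35.8 and 36.2 RPKM. These 4 genes passed the test against 1 RPKM (limma, adjusted p between 2.29e-07 and 8.40e-07). Ccnd1 was below Ccnd2 in 4 of 4 libraries, and the log2 difference, taken on RPKM + 1 here and for the pairs that follow, averaged -1.797 ± 0.27 (SD, n = 4, exact sign-flip permutation p = 0.125). That p is the smallest this test can give with 4 libraries, so none of the 6 gene pairs compared could pass 0.05, and all 6 had the same p, also after adjustment.

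Cdk6, the partner kinase of Cdk4, was low and split by library, at 3.37, 3.27, 0.88 and 0.75 RPKM in replicates 1 to 4, without passing the test (limma, adjusted p = 0.161). Replicates 3 and 4 lay below replicates 1 and 2. Cdk4 exceeded Cdk6 in every one of 4 libraries, with a log2 difference of 5.44 ± 0.91 (SD, n = 4, exact sign-flip permutation p = 0.125), with ratios of RPKM from 31.5 to 184. The E-type cyclins, which act with Cdk2 at S-phase entry, were low. Ccne1 stood at 1.34, 4.11, 2.86 and 2.84 RPKM and lay above 1 RPKM (limma, adjusted p = 0.0109), while Ccne2 stood at 3.01, 5.09, 1.34 and 1.09 RPKM and missed the threshold (limma, adjusted p = 0.0591). Cdk2 averaged 8.96 ± 1.76 RPKM and Cdk7, the kinase that activates other cyclin-dependent kinases, 4.37 ± 0.83 RPKM (SD, n = 4). Cdc25a, a phosphatase that removes inhibitory marks from Cdk2, was at 12.6, 13.6, 9.69 and 9.70 RPKM. Counting could mix some of these genes with neighbours, since 29.5% of 50-base windows of the Cdk4 transcript also occur in transcripts of other genes, with Tspan31 sharing more of them than any other gene. In Ccnd1, 27.2% of windows occur in LTO1, and in Ccnd3, 23.5% occur in other genes, Bysl sharing most windows among them.

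The promoter of Cdk4 is shown because it belongs to the most abundant kinase of the set and carries 4 copies of the E-box word CACGTG, a site that Myc and Max can bind. The sequence is the RefSeq promoter (GRCm38.p6, chr10:127063285-127063534, + strand), given as the 250 bases before the start, 5′ to 3′, with the E-box words in capitals.
Cdk4: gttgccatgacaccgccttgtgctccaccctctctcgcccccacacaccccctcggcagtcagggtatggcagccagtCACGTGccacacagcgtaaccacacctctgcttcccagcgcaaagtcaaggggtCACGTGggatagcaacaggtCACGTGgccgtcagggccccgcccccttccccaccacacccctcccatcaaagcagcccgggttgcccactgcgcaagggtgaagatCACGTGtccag
The E-box word was found in 3 of 7 G1 promoters and in 6 of 43 promoters of the whole set, against 10.7% of genes tested that have a promoter in the table. Myc itself stood at 6.30 to 10.5 RPKM in the same libraries.

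RB and E2F genes were transcribed throughout the family. Rb1, the retinoblastoma protein gene, stood at 27.0, 22.9, 10.9 and 8.46 RPKM in replicates 1 to 4, with replicates 3 and 4 below the other 2 libraries. Its relative Rbl2, p130, which holds E2F targets silent in resting cells, stood at 19.4, 16.6, 15.4 and 14.2 RPKM. Rbl1, p107, the relative that cycling cells make, was lower at 3.76, 4.88, 1.69 and 1.56 RPKM, and its place above 1 RPKM (limma, adjusted p = 0.0185) was lost without replicate 1 or without replicate 2, at adjusted p = 0.0648 and 0.0531.

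Among the E2F factors, E2f4, which mainly represses with p130, was the most abundant at 33.7, 31.0, 39.3 and 39.6 RPKM. E2f1, an activator of S-phase genes, stood at 26.1, 14.2, 16.2 and 17.0 RPKM, and the repressor E2f5 at 15.9, 21.0, 9.68 and 10.3 RPKM. The activators E2f3 (6.12 ± 1.75 RPKM) and E2f2 (1.87 ± 0.45 RPKM, SD, n = 4) were lower. E2f4 exceeded E2f1 in every one of 4 libraries, with a log2 difference of 0.96 ± 0.41 (SD, n = 4, exact sign-flip permutation p = 0.125).

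Replication genes were present at low to moderate levels. Mcm6, a subunit of the MCM helicase that unwinds DNA at the fork, was the highest at 35.4, 57.1, 24.0 and 26.2 RPKM. Pcna, the sliding clamp of DNA polymerases that also serves repair, followed at 25.9, 40.3, 18.1 and 23.0 RPKM. In both, replicate 2 was highest and replicates 3 and 4 were lowest. The 6 subunits of the MCM complex assemble in equal numbers, but their transcripts did not stand at equal levels. Mcm2 averaged 7.36 ± 1.10 RPKM, Mcm7 6.21 ± 1.54 RPKM, Mcm4 3.69 ± 1.99 RPKM and Mcm3 3.09 ± 1.41 RPKM (SD, n = 4). Mcm5 was lowest at 0.43, 1.68, 1.08 and 0.79 RPKM without passing the test (limma, adjusted p = 0.808).

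The factors that load the helicase were uneven as well. Cdt1, a loader, averaged 5.58 ± 1.35 RPKM and Gmnn, geminin, which blocks Cdt1, 6.47 ± 1.801 RPKM (SD, n = 4). Cdc6, the other loader, stood at 0.33, 0.51, 0.24 and 0.24 RPKM and was the only replication gene of the set below 1 RPKM (limma, adjusted p = 0.000156). Shared sequence touches part of the group, since 31.8% of 50-base windows of Pcna occur in the pseudogene Pcna-ps2 and 34.2% of Mcm7 windows in other genes, the pseudogene Gm5487 sharing most windows among them. How the authors counted reads with several matches is not given in the sources used here.

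The promoters of Mcm6 and Mcm5 are shown because they belong to the highest and the lowest helicase subunit, 35.6 ± 15.1 and 0.995 ± 0.53 RPKM (SD, n = 4), and both carry E2F words. They are the 250 bases before the RefSeq start (GRCm38.p6, chr1:128359706-128359955, - strand, and chr8:75109259-75109508, + strand), 5′ to 3′ along the gene. Capitals mark the E2F words TTTCCCGC, TTTGGCGC, TTTCGCGC and TTTGCCGC and the word CCAAT, on either strand.
Mcm6: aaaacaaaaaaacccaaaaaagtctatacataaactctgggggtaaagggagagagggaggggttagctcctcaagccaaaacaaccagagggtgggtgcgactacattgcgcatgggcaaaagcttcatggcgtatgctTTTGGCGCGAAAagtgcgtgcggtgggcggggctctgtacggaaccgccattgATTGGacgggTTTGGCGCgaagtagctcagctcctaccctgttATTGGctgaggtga
Mcm5: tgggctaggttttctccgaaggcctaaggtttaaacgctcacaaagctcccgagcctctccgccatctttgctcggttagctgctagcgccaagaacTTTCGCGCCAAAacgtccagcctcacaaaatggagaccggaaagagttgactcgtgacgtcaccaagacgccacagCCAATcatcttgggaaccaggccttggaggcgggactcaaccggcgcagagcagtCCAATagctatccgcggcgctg
In both promoters an E2F word on the + strand overlaps another on the - strand. An E2F word was found in 6 of 8 replication promoters (75%), against 4.03% of genes tested. Genes with such a word thus stood at both ends of the range of levels. A match describes these letters only and is not a bound site.

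Most genes of S phase, G2 and mitosis were close to 0. Mki67, the Ki-67 antigen of dividing cells, on chromosome 7 from 142881471 to 142908062 (mm9), stood at 0.05, 0.82, 0.01 and 0.04 RPKM in replicates 1 to 4. Top2a, the topoisomerase that untangles sister chromatids, stood at 0.15, 1.63, 0.10 and 0.07 RPKM, and Cdk1, the kinase that starts mitosis, at 0.17, 1.09, 0.21 and 0.28 RPKM. In each of these, replicate 2 lay far above the other 3 libraries, and without it the means were 0.0333, 0.107 and 0.22 RPKM. Mki67 and Cdk1 lay below 1 RPKM (limma, adjusted p = 0.00461 and 0.0182), Cdk1 no longer so without replicate 1 (0.0775). Top2a did not pass (adjusted p = 0.0719) and was below 1 RPKM without replicate 2 (3.13e-05).

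The B-type cyclins that activate Cdk1 were scarce. Ccnb1, cyclin B1, had 0.13 RPKM in replicate 2 and was listed at 0 in the other 3 libraries. In replicate 2, 3 reads on its transcript correspond to 0.0543 RPKM. Of its 50-base windows, 42.1% occur in transcripts of other genes, the pseudogene Ccnb1-ps sharing most windows among them. Gapdh, a glycolytic enzyme gene that every cell uses, was itself listed at 0.2, 0, 0.04 and 0.03 RPKM, so a value of 0 in these data is a listing and not proof of absence. Ccnb2, cyclin B2, with 0.72, 1.24, 0.32 and 0.33 RPKM, did not pass the test (limma, adjusted p = 0.0839) and lay below 1 RPKM without replicate 2 (0.0104).

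Several regulators of the spindle and its checkpoint were likewise highest in replicate 2, though not Aurka, given below. Birc5, survivin, a subunit of the chromosomal passenger complex, stood at 0.58, 2.35, 0.28 and 0.11 RPKM, and Aurkb, the kinase of that complex, at 0.19, 0.60, 0.09 and 0.19 RPKM. Plk1, a kinase of mitotic entry and exit, stood at 0.37, 0.82, 0.21 and 0.13 RPKM, and Cdc20, an activator of the anaphase-promoting complex, at 0.34, 0.61, 0.22 and 0.22 RPKM. Replicate 2 was again the highest for all 4. Aurkb, Plk1 and Cdc20 lay below 1 RPKM (limma, adjusted p = 0.0008, 0.0051 and 0.000632), and Birc5 did not pass (0.367) except without replicate 2, when it lay below (0.00627). Without replicate 2 the means of Aurkb, Plk1 and Birc5 were 0.157, 0.237 and 0.323 RPKM. Bub1b, a checkpoint kinase relative, with 0.76, 0.99, 0.38 and 0.40 RPKM, lay below 1 RPKM (limma, adjusted p = 0.0341), a call lost without replicate 1, 3 or 4 (0.057 to 0.120). Ccna1, a cyclin of germ cells, stood at 0, 0.07, 0.03 and 0.02 RPKM, and Cdc25c, a mitotic phosphatase, at 0, 0.12, 0.03 and 0 RPKM, and these also passed as lower than 1 RPKM (limma, adjusted p = 3.67e-07 and 1.47e-06).

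A few genes of the group did not follow the rest. Cdc25b, a phosphatase that activates Cdk1, stood at 49.7, 28.3, 35.01 and 34.3 RPKM. Aurka, a centrosome and spindle kinase on chromosome 2 from 172181696 to 172196006 (mm9), stood at 11.3, 9.27, 20.4 and 22.2 RPKM, with replicates 3 and 4 above the other 2 libraries. Both lay above 1 RPKM (limma, adjusted p = 1.25e-06 and 5.70e-05), and in both replicate 2 was the lowest library. Ccna2, cyclin A2, which serves S phase and G2, was at 3.17, 3.56, 1.65 and 2.02 RPKM and also lay above 1 RPKM (limma, adjusted p = 0.00799). Bub1, a spindle checkpoint kinase, with 2.53, 4.22, 1.32 and 1.17 RPKM, missed the threshold (limma, adjusted p = 0.0535). The markers of cycling cells thus differed among themselves. Pcna exceeded Mki67 in every one of 4 libraries, with a log2 difference of 4.49 ± 0.18 (SD, n = 4, exact sign-flip permutation p = 0.125). Ratios of RPKM for this pair ran from 49.1 to 1805, a spread that the RPKM + 1 scale compresses.

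The promoters of Cdk1, Mki67 and Top2a are shown because these genes set replicate 2 apart from the others. They are again the 250 bases before the RefSeq start (GRCm38.p6, chr10:69352913-69353162, chr7:135716380-135716629 and chr11:99024190-99024439, all - strand), 5′ to 3′ along the gene. Capitals mark the CHR words TTTGAA and TTCGAA, the word CCAAT and, in Cdk1, an E2F word, on either strand.
Cdk1: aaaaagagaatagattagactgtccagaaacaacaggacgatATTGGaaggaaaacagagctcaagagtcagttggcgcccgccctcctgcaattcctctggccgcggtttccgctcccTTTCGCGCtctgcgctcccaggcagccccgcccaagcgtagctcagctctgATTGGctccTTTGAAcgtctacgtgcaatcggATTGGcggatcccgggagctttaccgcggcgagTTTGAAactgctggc
Mki67: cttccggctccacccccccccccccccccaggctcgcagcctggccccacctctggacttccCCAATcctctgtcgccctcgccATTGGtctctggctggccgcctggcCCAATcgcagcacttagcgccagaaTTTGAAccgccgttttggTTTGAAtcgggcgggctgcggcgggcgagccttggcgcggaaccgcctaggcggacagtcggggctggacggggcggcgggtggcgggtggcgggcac
Top2a: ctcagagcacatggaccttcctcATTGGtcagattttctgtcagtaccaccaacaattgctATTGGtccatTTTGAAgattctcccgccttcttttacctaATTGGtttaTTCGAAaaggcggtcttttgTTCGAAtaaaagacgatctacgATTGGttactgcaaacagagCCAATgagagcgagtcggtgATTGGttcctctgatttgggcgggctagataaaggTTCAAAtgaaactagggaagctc
A CHR word was found in 10 of 13 promoters of the group (76.9%), against 16.7% of genes tested, and CCAAT in 12 of 13 (92.3%), against 42.3%. An E2F word was found in 1 of the 13, in Cdk1. Cdc25b, Aurka and Bub1, which stood higher than most of the group, also hold a CHR word and CCAAT, so the words do not separate the high from the low members.

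Inhibitors of cyclin-dependent kinases were among the most abundant members. Cdkn1a, p21, which blocks Cdk2 complexes and is a main p53 target, on chromosome 17 from 29230717 to 29237667 (mm9), stood at 249.5, 249.9, 580.3 and 607 RPKM in replicates 1 to 4. It lay above 99.2% of genes tested by mean level (422 ± 199 RPKM, SD, n = 4), and replicates 3 and 4 were far above the other 2 libraries. Cdkn1b, p27, its relative, ran the other way, at 43.5, 58.2, 27.4 and 27.6 RPKM. Cdkn1a exceeded Cdkn1b in every one of 4 libraries, with a log2 difference of 3.34 ± 1.22 (SD, n = 4, exact sign-flip permutation p = 0.125), with ratios of RPKM from 4.30 to 21.99.

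The INK4 family, which blocks Cdk4 and Cdk6, was present in part. Cdkn2b, p15, was the steadiest at 47.3, 39.3, 40.5 and 43.3 RPKM. Cdkn2a, on chromosome 4 from 88920377 to 88940523 (mm9), stood at 44.3, 31.2, 11.2 and 13.3 RPKM, with replicates 3 and 4 below the other 2 libraries. Its locus makes both p16, an INK4 inhibitor, and p19Arf, which frees p53 from Mdm2, from shared exons, and 1 row cannot separate them. Cdkn2c, p18, averaged 8.83 ± 3.11 RPKM (SD, n = 4), whereas Cdkn2d, p19, at 0.37, 0.47, 0.68 and 0.29 RPKM, lay below 1 RPKM (limma, adjusted p = 0.00119).

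The p53 pair was moderately abundant. Trp53, p53, stood at 30.3, 24.5, 41.5 and 41.1 RPKM, higher in replicates 3 and 4. Mdm2, its target and ubiquitin ligase, stood at 48.5, 53.6, 34.2 and 32.3 RPKM, lower in replicates 3 and 4. Among the Myc genes, which promote growth and cell cycle entry, Myc stood at 9.61, 10.5, 7.12 and 6.30 RPKM, Mycl1 at 3.45 ± 0.28 RPKM and Mycn at 1.09 ± 0.08 RPKM (SD, n = 4), the last without passing (limma, adjusted p = 0.469). Myc exceeded Mycn in every one of 4 libraries, with a log2 difference of 2.15 ± 0.30 (SD, n = 4, exact sign-flip permutation p = 0.125).

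Set side by side, the groups had inhibitors highest and genes of S phase, G2 and mitosis lowest in every library. The median of the inhibitors was 29.7 ± 11.9 RPKM over libraries, that of the RB and E2F family 13.2 ± 3.97 RPKM and that of the G1 cyclins and kinases 10.2 ± 1.35 RPKM (SD, n = 4). The p53 and Myc group stood at 8.39 ± 2.001 RPKM, the replication group at 5.61 ± 1.44 RPKM, and the S, G2 and mitosis group at 0.454 ± 0.397 RPKM. Without replicate 2 the last fell to 0.258 RPKM. The median of all genes tested was 7.02 ± 1.05 RPKM. The groups in the middle overlapped in their spread and changed places between libraries. The medians are a description, with no test.

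**Figure D2:**
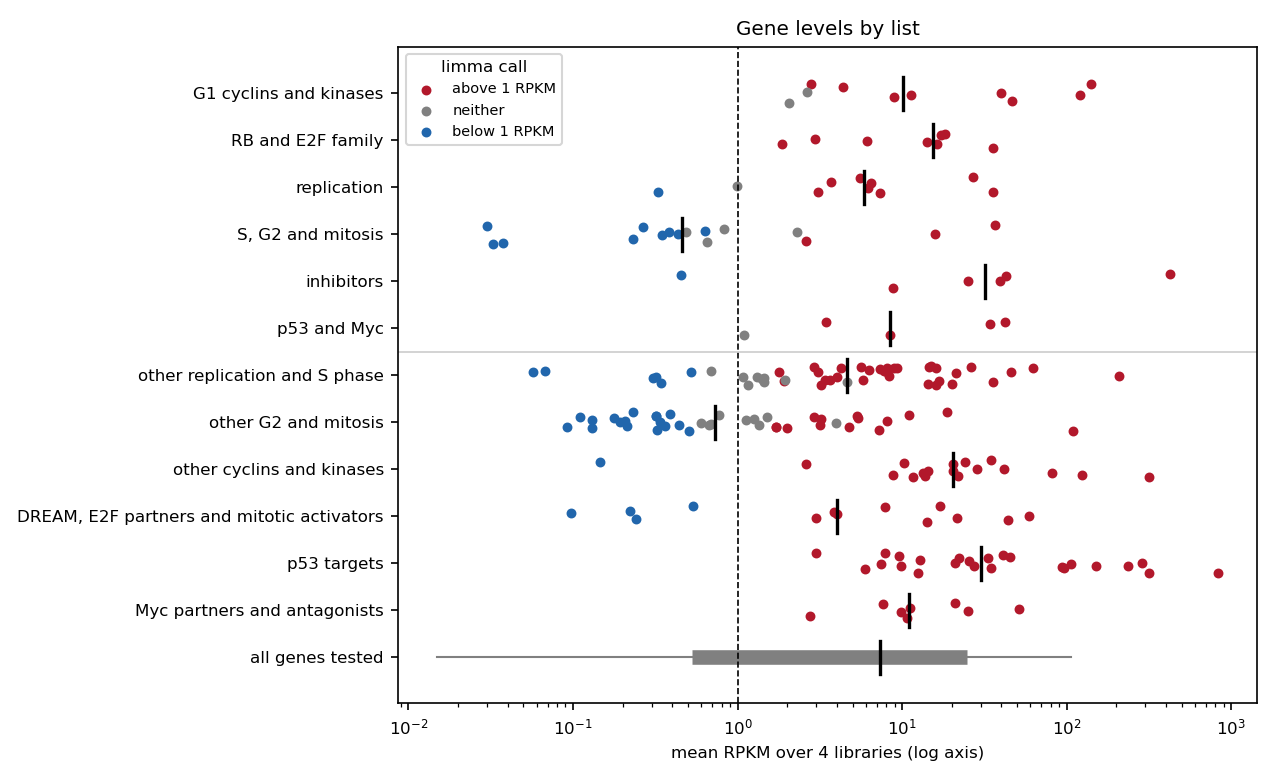
Mean RPKM over 4 libraries (log axis) of each gene in the 6 role groups and in 6 wider lists, coloured by its limma call against 1 RPKM; black ticks are medians of these means, and the grey bar is the middle 50% and the thin line the middle 90% of all genes tested. Most genes of S phase, G2 and mitosis lie below the dashed line at 1 RPKM, the wider mitotic list lies on both sides of it, and the p53 targets lie entirely above it.

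Replicate 2 held the highest value for 39 of the 55 genes, against 30.5% of all genes tested. Replicate 1 was highest for 8, replicate 3 for 3 and replicate 4 for 5 of the 55, against 34.9%, 13.5% and 18.9% of genes tested. For 6 members 1 library lay apart from the other 3 by Dixon's criterion (12.6% of genes tested), and in all 6 it was replicate 2 on the high side (3.79%). By role, replicate 2 led in 10 of 10 replication genes and 14 of 16 genes of S phase, G2 and mitosis, but in 2 of 6 inhibitors and 3 of 8 genes of the RB and E2F family. Of the 14, Ccna1, Ccnb1 and Cdc25c held only 2.4, 7.2 and 5.2 estimated reads in replicate 2. With libraries scaled to equal sums the count was 37 of 55, and with median-of-ratios scaling 40 of 55, with the replication and mitotic counts as before. For the median gene of the S, G2 and mitosis group, replicate 2 held 54.8% of the RPKM summed over the 4 libraries, against 38.1% for the replication group and 25.2% for all genes tested. Some markers of other cells shared this order. Replicate 2 was highest for 3 of 5 endothelial markers (Pecam1, Cdh5 and Tek), with a list median of 0.16 RPKM in replicate 2, against 0.05 to 0.09 RPKM in the others. These 3 rest on few reads, an estimated 11.5, 4.4 and 25.8 in replicate 2. Kdr was highest in replicate 1, and Esam was lowest in replicate 2, at 0.62 RPKM. The sum of the 5, of which 4 lay below 1 RPKM, was 0.98 to 1.31 RPKM and highest in replicate 1 through Esam. Mesenchymal markers (7 genes, 4 of them below 1 RPKM) summed to 2.11 to 5.17 RPKM, with replicate 1 the highest, and replicate 2 was highest for 0 of them. Ptprc, the pan-leukocyte antigen, was at 0.01 RPKM or less, Cd3e and Lum were at 0 in every library, and the sum over 6 immune markers, 5.45 to 17.4 RPKM, was nearly all Csf1r. Over 5 biliary markers the sum was highest in replicate 2, at 2157 RPKM, against 1054 to 1554 RPKM in the others. That place rested on Spp1, at 1332 RPKM in replicate 2, against 336 to 471 RPKM in the others. Krt19 and Epcam were also highest in replicate 2. Krt7 was highest in replicate 3, at 802 RPKM, against 482 RPKM in replicate 2, and Sox9 was highest in replicate 1. The part of any of these markers in the result was not tested.

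**Figure D3:**
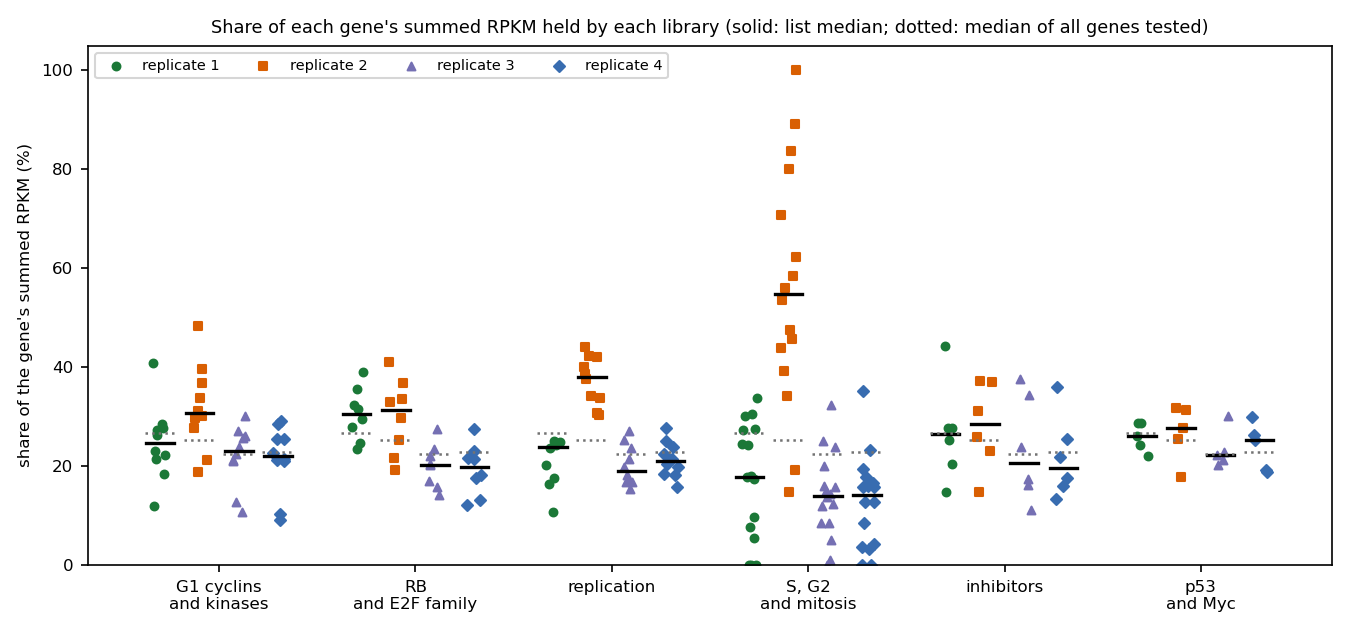
Share (%) of each gene's RPKM, summed over 4 libraries, that each library holds, by role group; points are genes, solid lines are group medians and dotted lines are medians of all genes tested. Replicate 2 holds a median of 54.8% for S phase, G2 and mitosis and 38.1% for replication.

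Replicates 3 and 4 also stood apart from replicates 1 and 2 in many members. Both were below both others for 30 of 55 genes, against 38.5% of genes tested, and above both for 6, namely Ccnd3, Cdk4, E2f4, Aurka, Cdkn1a and Trp53, against 24.2%. Across 11841 genes with a mean of at least 1 RPKM, this difference followed the GC content of the transcript (Spearman 0.571) and its length (Spearman -0.251), as a description over genes of the same libraries. Each member was set beside the 500 genes nearest in GC content. Cdkn1a differed by 1.25 on the log2(RPKM + 1) scale between replicates 3 and 4 and replicates 1 and 2, and genes of like GC content by a median of 0.20. Aurka differed by 0.99, against 0.04. Cdkn2a differed by -1.53, against 0.26 for genes of like GC content, and so ran opposite to them. Rb1 differed by -1.29, of which genes of like GC content showed -0.86, and Ccne2 by -1.16, of which they showed -1.08. Cdkn1b differed by -0.85, of which they showed -0.42, and Mdm2 by -0.60, of which they showed -0.39. Trp53 differed by 0.58, of which they showed 0.18. Of 35 members that did not overlap and had a known GC content, 32 kept their direction after this subtraction, and Ccnd2, Cdk7 and Rbl2 did not. The same share over all genes was not computed, so this count cannot be read as particular to the members. The 500 genes all had a mean of at least 1 RPKM, so members near 0 were set beside genes of higher level. With 2 libraries on each side and Y-linked reads, base composition and library similarity all moving together, these cannot be told apart.

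**Figure D4:**
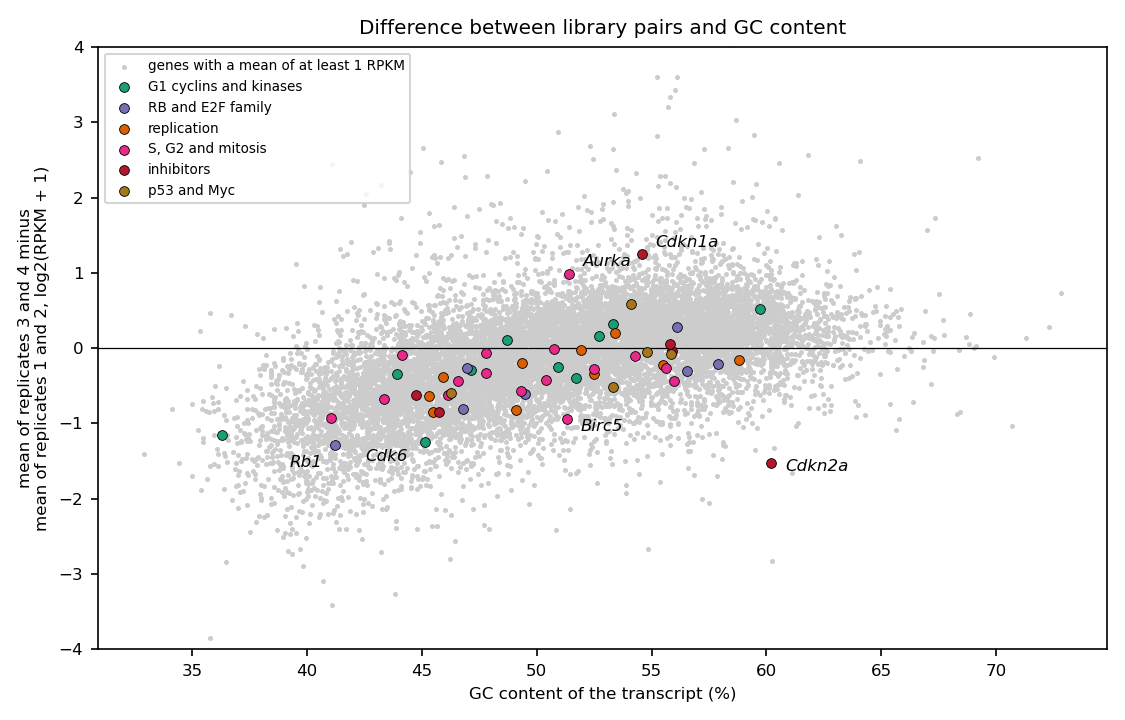
Difference between the mean of replicates 3 and 4 and the mean of replicates 1 and 2 on the log2(RPKM + 1) scale, against GC content of the transcript (%), for 11841 genes (grey) and the cell cycle members (coloured by role). Cdkn1a and Aurka lie above the band of genes of like GC content, and Cdkn2a lies far below it.

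Wider lists of the same pathways stood higher for replication than for mitosis, with no test of that difference. These lists were chosen with earlier results of these data known and come from the same libraries, so they are not separate support. Of 47 other replication and S-phase genes, 32 (68.1%) lay above 1 RPKM and 6 below, near the 65% above among all genes tested, and their median of 4.94 RPKM was below the 7.02 RPKM of all genes tested. Orc6, a subunit of the origin recognition complex, led at 206 ± 28.7 RPKM, before Fen1, a flap endonuclease whose transcript is 88.5% shared with an antisense gene, at 62.8 ± 6.53 RPKM and Rpa3, of the single-strand binding complex, at 46.2 ± 9.09 RPKM (SD, n = 4). Exo1, an exonuclease of repair, was the lowest, at 0.01 to 0.15 RPKM. Of 40 other genes of G2 and mitosis, 14 (35%) lay above and 17 (42.5%) below, against 65% and 26.1% of all genes tested, with a median of 0.779 RPKM, or 0.523 RPKM without replicate 2. Pttg1, securin, was the exception at the top with 83.5, 121.5, 112 and 121.2 RPKM, before Psrc1 at 18.7 ± 1.73 RPKM and Cks1b, a kinase subunit, at 11.0 ± 3.35 RPKM, and Cenpf, a kinetochore protein, was the lowest at 0.01, 0.34, 0.01 and 0.01 RPKM. Replicate 2 was highest for 35 of the 47 and for 30 of the 40, against 30.5% of all genes tested.

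Of 13 genes of the DREAM complex, E2F partners and mitotic activators, 9 (69.2%) lay above 1 RPKM and 4 (30.8%) below, both close to the 65% and 26.1% of all genes tested. The highest were Rbbp4 at 59.4 ± 11.2 RPKM, Mybl1 at 59.0, 85.2, 18.1 and 13.4 RPKM in replicates 1 to 4, and Tfdp1, the dimer partner of E2F factors, at 21.7 ± 2.17 RPKM (SD, n = 4). The 4 below were Foxm1 and Mybl2, activators of mitotic genes, and the late repressors E2f7 and E2f8, the last lowest at 0.01 to 0.21 RPKM. Of 18 other cyclins and kinases, many of which serve transcription, 17 (94.4%) lay above 1 RPKM, against 65% of all genes tested, led by Ccng1 at 317 ± 65.4 RPKM. Cdkn1c, p57, the imprinted member of the Cip/Kip family, stood at 32.3, 70.6, 186 and 204 RPKM, highest in replicates 3 and 4 like Cdkn1a. Ccni, cyclin I, averaged 81.2 ± 13.3 RPKM, and Cdkn3, a phosphatase of Cdk2, was lowest at 0.08, 0.44, 0 and 0.06 RPKM.

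Genes known as p53 targets all lay above 1 RPKM, 24 of 24, against 65% of all genes tested. Their median was 29.8 RPKM, against 7.02 RPKM over all genes tested. This list and the Myc list below were chosen with earlier results of these data known, so their shares are a description only. Perp, an epithelial adhesion protein, led at 830 ± 155 RPKM, with Ccng1 as above and Gadd45a, a growth arrest protein, at 285 ± 64.9 RPKM (SD, n = 4), and Fas, a death receptor, was lowest at 2.995 ± 1.45 RPKM. All 8 Myc partners and antagonists lay above 1 RPKM, against 65% of all genes tested, from Mxd4 at 51.0 ± 11.2 RPKM, with Max, the shared partner, at 25.2 ± 4.72 RPKM and Mlx at 20.8 ± 3.90 RPKM, down to Mxd3 at 2.77 ± 0.435 RPKM (SD, n = 4).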

How the data were processed

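RNA from sorted rGBC2 cells (4 libraries, TruSeq v2 kit per the labels' protocols) was analysed. The authors deposited RPKM values per gene symbol, rounded to 2 decimals; the submitters' processing notes name Bowtie, CASAVA 1.8.2 and build mm9. The sources used here do not give the counter, the strand setting or the fate of multi-mapping reads. Another 6 per-sample columns match no sample of this series and were not used. Coordinates are the deposited ones, counted from 1.

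Under R 4.3.3, limma 3.58.1 (empirical Bayes variances, trended on level) compared log2(RPKM + 1) with 1 RPKM, two-sided, for 16919 genes; 3458 genes at 0 in every library were left out. This scale compresses low genes. The test was checked on simulated data, in which libraries were drawn independently of one another. That check therefore does not cover the likeness of replicates 3 and 4. Gene pairs were compared by an exact sign-flip permutation test (SciPy 1.17.1), adjusted over 6 pairs.

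Depth (22.2 to 32.9, in units of 1e6 reads per library) was estimated from low values of 993 olfactory receptor genes, whose RPKM steps correspond to whole reads. Values of 3 reads cover counting error only. Transcript length and GC content came from GENCODE M21 by RefSeq identifier (19992 genes), and promoters from RefSeq (GRCm38.p6) by symbol, with 43 of 55 members matched. Motif words were searched on both strands in the 250 bases before and 50 after each start, counting a gene once.

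The members and lists were chosen with earlier results of these data known. Members with a mean above 10 RPKM, below 1 RPKM by the test, or varying at least 4-fold are given per library, and of each wider list the 3 highest genes and the lowest called gene. Further alternatives varied pseudocount, filter, level, variance model, scaling and libraries.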

Additional observations from a re-analysis of the deposited data

Results flagged for a closer look

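In a few members 1 library lay far from the other 3, by the gap between it and its neighbour relative to the range, and in each it was replicate 2 on the high side. Ccnd1 stood at 53.8 RPKM in replicate 2, against 34.1 to 36.2 RPKM in the others. Mcm3 stood at 5.19 RPKM, against 2.18 to 2.53 RPKM. Cdk1 stood at 1.09 RPKM, against 0.17 to 0.28 RPKM, Mki67 at 0.82 RPKM, against 0.01 to 0.05 RPKM, and Top2a at 1.63 RPKM, against 0.07 to 0.15 RPKM. Ccnb1 stood at 0.13 RPKM, or 7.2 estimated reads, with 0 in the other 3. The median of the G1 cyclins and kinases was 12.2 RPKM in replicate 2, against 9.41 to 9.60 RPKM. These are 6 of 55 members, of which 4 belong to S phase, G2 and mitosis. By its nominal rate chance flags about 1 in 20 groups, but 12.6% of all genes tested had 1 library apart by this criterion. Among all genes tested replicate 2 was high and apart in 3.79%.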

How the results depend on the processing

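The count of members above 1 RPKM was 36 and lay between 30 and 40 under every alternative tried, and between 35 and 38 when each replicate was left out in turn. The count below 1 RPKM was 11. It was 5 against a level of 0.5 RPKM and 7 with replicates 1 and 2 only, an alternative added after seeing the data, and 9 to 13 when each replicate was left out. The count of all genes below 1 RPKM, 4423, became 1889 when only genes with a mean of at least 0.1 RPKM were tested and 7777 with no filter, since genes at 0 then leave or enter the test. Against 2 RPKM the difference of E2f2 turned to -0.076 and that of Mycn to -0.52 on the log2 scale, and against 0.5 RPKM that of Bub1b turned to 0.10, as their levels lie between these limits. Bub1b also lost its call without replicate 1, 3 or 4 and under several other settings; the cause was not tested. With replicates 1 and 2 only, Ccne1, Cdk1, Mki67, Plk1 and Bub1b lost their calls, while Ccne2, Bub1 and Cdk6 lay above 1 RPKM. Ccne2 and Bub1 also passed as above without replicate 4, with a pseudocount of 0.1, with the filter at 0.1 RPKM and with median-of-ratios scaling, and Ccne2 with replicates 3 and 4 averaged. Top2a passed as below with a pseudocount of 0.1. With replicates 3 and 4 averaged into 1 sample, 37 members lay above and 10 below. Median-of-ratios scaling moved replicate 1 by -0.134 on the log2 scale. All 6 gene pairs kept direction, which was fixed in advance, because each had the same direction in all 4 libraries. All 6 group medians stayed within 1 SD under the alternatives run for them. Leaving out 1 of 4 libraries cannot move a mean by 1 SD, so among these only the scalings could have moved a median. No paired analysis was possible because there is 1 group. Depth limits genes near 0, where 3 reads per kilobase of transcript equal 0.0912 to 0.135 RPKM.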
